A study of Mus musculus with 4 samples.

Results

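Runx2 occupancy was described at the loci of 10 genes of secreted Adamts proteases other than *Adamts4*, namely *Adamts1*, *Adamts2*, *Adamts3*, *Adamts5*, *Adamts6*, *Adamts7*, *Adamts9*, *Adamts12*, *Adamts14* and *Adamts15*. The genes were chosen by name, out of 22359 protein-coding genes, and each Runx2 peak that shared at least 1 bp with a gene body widened by 20 kb on each side was taken. This gave 26, 82 and 58 peaks at days 0, 9 and 28, out of 25457, 60596 and 40330 in the whole lists. Merging peaks that overlapped between days gave 84 regions of 67703, none of which lay in the windows of more than 1 of the 10 genes.

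The cells were MC3T3-E1 subclone 4, a preosteoblast line derived from calvaria of C57BL/6 mice, so the data describe 1 clonal line in culture and not bone tissue. The lists hold no expression values, so the cell type was not checked against markers. Chromatin was immunoprecipitated with an antibody against Runx2 in proliferating preosteoblasts (day 0), in cells depositing matrix (day 9) and in mineralizing cells (day 28) after culture with ascorbic acid and beta-glycerophosphate. Input DNA of day 9 cells served as the control at every time point. The reads of 2 biological replicates were pooled by the authors before peaks were called, so each day has 1 list, no replicate error and no test between days, and all comparisons of days are comparisons of 3 lists. The lists hold no read counts and their read depth is unknown from them. Each peak carries a score, 10 times the negative log10 of its p-value from the peak caller MACS, and the lowest score was 100 in each list. Scores move with read depth, so each peak is placed by its percentile within its own day's list, where a percentile of 50 is the middle of the list. A percentile depends in turn on which peaks the list holds and how many, and it differed between days in the lists as a whole, with medians of 59.8, 79.5 and 73.2 at days 0, 9 and 28 over all regions present at all 3 days. A change of percentile between days is therefore a change of rank and no measure of a change in binding. Positions are on the mouse assembly mm9 and are counted from 1.

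Runx2 is the Runt domain transcription factor that osteoblast differentiation depends on, and it binds the core motif TGTGGT. Adamts proteases (a disintegrin and metalloproteinase with thrombospondin motifs) are secreted zinc enzymes that cut proteins of the extracellular matrix. Some remove the amino-terminal propeptides of fibrillar procollagens, the collagens of bone and other connective tissue, while others cleave large proteoglycans such as aggrecan and versican or the cartilage oligomeric matrix protein Comp.

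The sequence at the centre of the day 9 peak with the highest score is shown for 7 of the 9 genes that had a peak. Day 9 was taken as the time point with the most peaks. Each is the highest-scoring peak of its own gene, and their ranks differed, from percentile 57.0 for *Adamts15* to 97.4 for *Adamts2*. A peak's centre is here the midpoint of its called interval and not its summit, which the lists do not give. Each line gives 101 bases of NCBIM37 (mm9), 5′ to 3′ on the strand of the gene, with TGTGGT or its reverse complement ACCACA in capitals.

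Adamts2 day 9, start site and intron 1, chr11:50415999-50416099, + strand: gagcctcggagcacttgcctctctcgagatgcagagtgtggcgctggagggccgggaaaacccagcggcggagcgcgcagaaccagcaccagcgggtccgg
Adamts14 day 9, intron 4, chr10:60695801-60695901, - strand: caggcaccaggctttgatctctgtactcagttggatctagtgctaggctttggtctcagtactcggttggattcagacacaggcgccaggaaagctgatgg
Adamts1 day 9, exon 1, chr16:85802831-85802931, - strand: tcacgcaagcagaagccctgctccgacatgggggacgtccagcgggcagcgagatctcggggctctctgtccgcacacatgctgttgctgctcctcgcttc
Adamts5 day 9, promoter, chr16:85901928-85902028, - strand: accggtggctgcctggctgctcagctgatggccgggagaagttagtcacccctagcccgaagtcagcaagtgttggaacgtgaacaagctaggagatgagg
Adamts15 day 9, intron 1, chr9:30719574-30719674, - strand: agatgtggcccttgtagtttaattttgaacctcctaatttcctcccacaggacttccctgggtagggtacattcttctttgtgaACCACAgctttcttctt
Adamts7 day 9, promoter, chr9:90057597-90057697, + strand: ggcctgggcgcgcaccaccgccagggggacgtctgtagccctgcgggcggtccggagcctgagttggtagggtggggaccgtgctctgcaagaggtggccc
Adamts6 day 9, 3' side, chr13:105300547-105300647, + strand: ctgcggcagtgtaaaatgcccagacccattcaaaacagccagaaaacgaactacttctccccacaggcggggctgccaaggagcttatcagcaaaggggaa

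Of the 7 centres shown, that of *Adamts15* held the motif. The centres of *Adamts9* and *Adamts12* are not shown, so this is not a count over all 9 genes. The *Adamts2* and *Adamts7* peaks held none over their whole length, and in the other 4 the nearest motif lay farther from the centre than the 50 bp that the search covered. Those 4 motifs are shown in 40 bases each, to let the sequence around the core be compared. The distance from the peak centre was 505 bp in *Adamts14*, 159 bp in *Adamts1*, 321 bp in *Adamts5* and 388 bp in *Adamts6*.

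Adamts14 intron 4, chr10:60695326-60695365, - strand: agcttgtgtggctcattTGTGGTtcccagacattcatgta
Adamts1 start site peak, chr16:85802702-85802741, - strand: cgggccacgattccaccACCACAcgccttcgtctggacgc
Adamts5 start site peak, chr16:85901637-85901676, - strand: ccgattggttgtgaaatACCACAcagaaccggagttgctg
Adamts6 3' side, chr13:105300965-105301004, + strand: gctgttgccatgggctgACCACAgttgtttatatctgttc

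Across the 10 genes, Runx2 peaks were most numerous at day 9. At least 1 peak was present at 9 genes at day 0, at 9 at day 9 and at 9 at day 28, against 65%, 77% and 71.2% of all protein-coding genes. *Adamts3* was the gene without a peak at each of the days. There were more peaks at day 9 than at day 0 in 9 of the 10 genes, where 60.3% of all genes had more, and fewer at day 28 than at day 9 in 7 of the 10, where 50.2% of all genes had fewer. The 7 genes with most peaks at day 9 were *Adamts2*, *Adamts14*, *Adamts1*, *Adamts5*, *Adamts9*, *Adamts15* and *Adamts7*, whereas *Adamts12* and *Adamts6* had most at day 28. A gene with a long window has more room for peaks: the gene bodies ran from 9.29 kb for *Adamts1* to 282.1 kb for *Adamts12*, and the median over all genes was 15.4 kb. Per 100 kb of window, the 10 genes had a median of 1.5, 5.99 and 3.57 peaks at days 0, 9 and 28, beside 1.69, 3.49 and 2.33 over all genes.

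**Figure D1:**
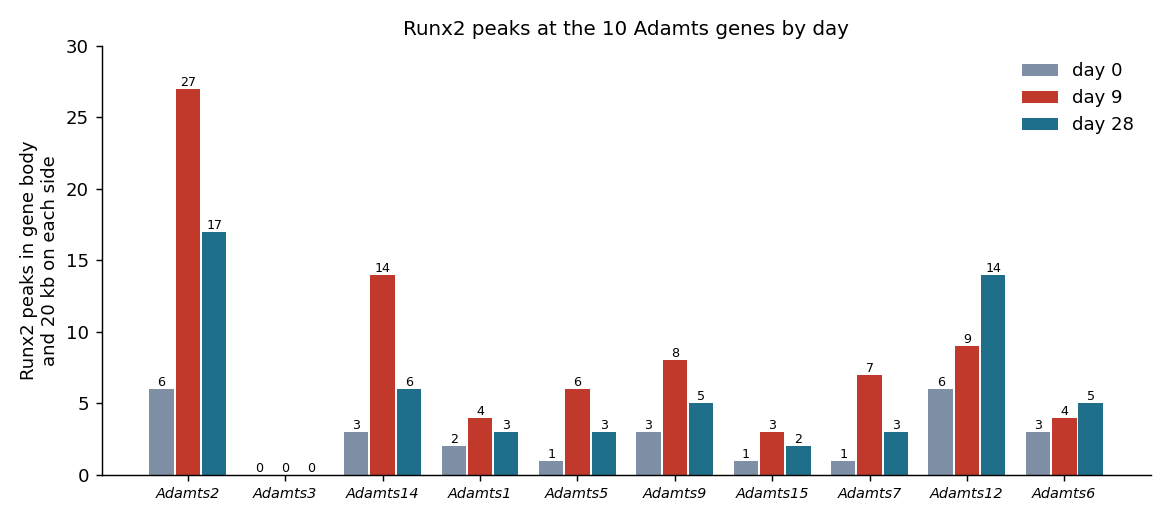
Number of Runx2 peaks (vertical axis) in the body of each of the 10 Adamts genes and 20 kb on each side at day 0, day 9 and day 28; each bar is 1 list of pooled replicates, with its count above it. Adamts2 had the most peaks at day 9, with 27, Adamts12 had its highest number, 14, at day 28, and Adamts3 had none.

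The difference between days was smaller with lists of equal length. With each list limited to its 25457 highest-scoring peaks, as many as day 0 has, the counts were 26 at day 0, 34 at day 9 and 33 at day 28. At this length 4 of the 10 genes had more peaks at day 9 than at day 0. The share of all genes with more was not counted at this length, so the 4 genes have no such comparison. Day 9 peaks were also narrower, with a median width of 562.5 bp at these genes against 976.5 bp at day 0 and 730 bp at day 28, close to the 554, 917 and 763 bp of the whole lists. Counting regions in place of peaks gave 24, 70 and 55 regions with a peak at days 0, 9 and 28, or 28.6%, 83.3% and 65.5% of the 84, beside 36.8%, 84.75% and 58.25% of all merged regions.

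*Adamts2*, *Adamts3* and *Adamts14* encode the procollagen N-proteinases, and their loci ranged at days 9 and 28 from the most densely to the least occupied of the 10 by peaks per 100 kb. *Adamts2*, the main N-proteinase of type I procollagen, had 6, 27 and 17 peaks at days 0, 9 and 28. Its 27 day 9 peaks placed it at percentile 99.6 of all genes by number and at percentile 85.1 by peaks per 100 kb, over a body of 205.5 kb. The peaks fell into 27 regions: 5 were present at all 3 days, 8 at days 9 and 28, 10 at day 9 alone and 4 at day 28 alone. Of these, 16 regions lay nearest to a start of *Adamts2*, and the others lay nearest to the start of *Zfp354c*, a zinc finger gene that follows it on the opposite strand.

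The start site of *Adamts2* (chr11:50414949-50418462) was occupied at all 3 days. The start peak had scores of 286.4, 3100 and 3100 at days 0, 9 and 28, at percentile 52.4, 97.4 and 97.8 of those lists. The peak thus stood in the middle of the day 0 list and near the top of the other two, where many peaks share the score of 3100 (2699 at day 9 and 1468 at day 28). A further region, in intron 3 (chr11:50486046-50489089), held the highest-scoring *Adamts2* peak of day 0, at percentile 83.0, and was at percentile 89.4 at day 9 and 89.1 at day 28. Another, in intron 2 (chr11:50444656-50446397), was at percentile 72.9, 90.5 and 69.0. Introns 3 and 4 also held regions that had no peak at day 0: one at chr11:50491053-50491780 was at percentile 84.4 at day 9 and 62.2 at day 28, and another at chr11:50554871-50555915 was at percentile 90.7 and 81.8. The 10 day 9 regions without a peak at another day were at percentiles from 0.828 to 58.2.

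*Adamts14*, a related procollagen N-proteinase, had 3, 14 and 6 peaks at days 0, 9 and 28, and was at percentile 87.5 of all genes by day 9 peaks per 100 kb. Its highest-scoring region was not the same at every day. At day 0 the highest-scoring peak lay upstream, at -4811 bp from the start (chr10:60740596-60741385), and this region was at percentile 96.7, 78.2 and 74.1 at days 0, 9 and 28. At day 9 the highest-scoring peak lay in intron 4 (chr10:60695142-60696615), at percentile 59.7, 95.2 and 75.6. The upstream region was thus highest within its list at day 0 and the intron 4 region at day 9. The start site itself had no peak at day 0 and was at percentile 60.6 at day 9 and 60.9 at day 28. Of the 13 regions, 7 had a peak at day 9 alone, and 2 of the 13 lay on the 3' side, within the neighbouring gene *Tbata*.

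*Adamts3*, which also encodes a procollagen N-proteinase, had 0, 0 and 0 peaks at days 0, 9 and 28 over a window of 249.5 kb. From the gene body to the nearest peak it was 228.9, 340.2 and 340.1 kb at days 0, 9 and 28. Of long genes without a peak there were others: 96 of the 893 genes with a window at least as long had no peak at any day (10.8%, 95% interval 8.80 to 13.0%), and 4725 of all 22359 genes had none. An absent peak means that no enrichment passed a p-value of 1e-10 at the depth of these libraries.

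**Figure D2:**
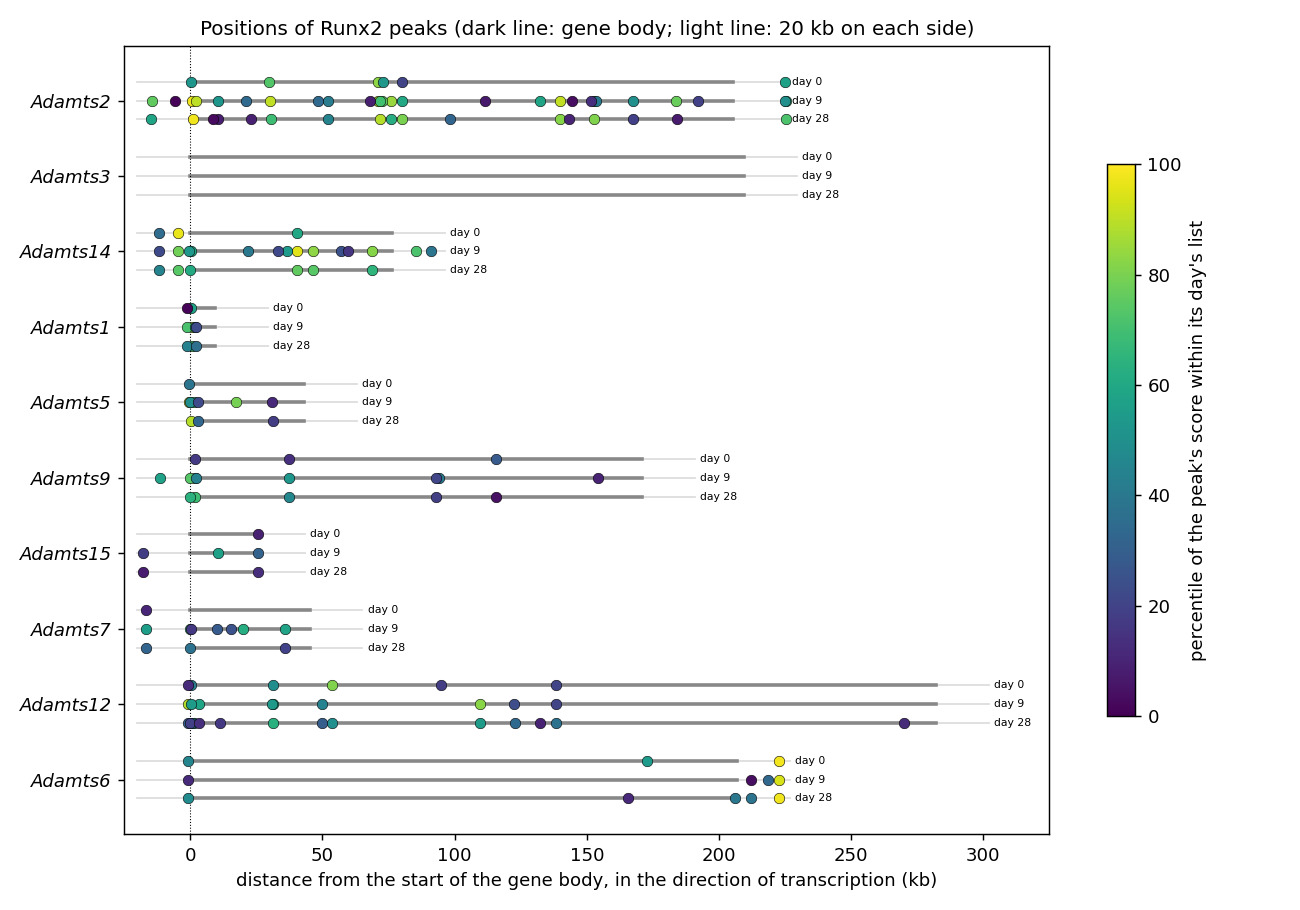
Positions of Runx2 peaks along the 10 Adamts genes, as the distance of each peak's centre from the start of the gene body in the direction of transcription (kb), with 1 line per day; dark lines are gene bodies, light lines the 20 kb on each side, and the colour gives the percentile of the peak's score within its day's list. Peaks lay along the body of Adamts2 at days 9 and 28, close to the start of Adamts1, and at both ends of Adamts6.

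In the full lists, the proteoglycanase genes *Adamts1*, *Adamts5*, *Adamts9* and *Adamts15* each had a peak at all 3 days, most at day 9 and fewer at day 28. With lists of equal length the counts were 2, 2 and 2 for *Adamts1* and 1, 3 and 1 for *Adamts5*. They were 3, 2 and 3 for *Adamts9* and 1, 0 and 0 for *Adamts15*. Of these genes, *Adamts5* alone then had most at day 9. *Adamts1*, an early characterized protease of the family that cleaves versican, had 2, 4 and 3 peaks at days 0, 9 and 28. They fell into 2 regions, both present at all 3 days. The region over the start and exon 1 (chr16:85800862-85803789) was at percentile 56.7 at day 0, 86.3 at day 9 and 71.1 at day 28. The other, an upstream region (chr16:85804298-85805037), was at percentile 0.905, 71.3 and 43.7, and held TGTGGT within 50 bp of its peak centre at days 9 and 28. *Adamts1* had no region of a single day.

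*Adamts5*, a major aggrecan-cleaving protease of mouse cartilage, lies beside *Adamts1* on chromosome 16. It had 1, 6 and 3 peaks at days 0, 9 and 28. Its start region (chr16:85899347-85902471) was at percentile 38.1, 93.6 and 88.8. This was the second-highest start peak of the 10 genes at days 9 and 28, after *Adamts2*, and the lowest at day 0. The other 3 regions had no peak at day 0, and the highest of them, in intron 2 (chr16:85883850-85884247), was at percentile 79.2 at day 9 and was the gene's only region of that day alone.

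*Adamts9*, a versican-cleaving protease, had 3, 8 and 5 peaks at days 0, 9 and 28 over a body of 170.8 kb. Its start site had no peak at day 0 and was at percentile 73.5 at day 9 and 63.9 at day 28. The region with the highest score at days 9 and 28 lay in intron 2, at percentile 17.03, 75.8 and 69.1. A region in intron 28 (chr6:92777349-92778079) had a peak at day 0 (percentile 28.2) and day 28 (4.34) and none at day 9. The annotated genes *Gm15737* and *A730049H05Rik* start within the body of *Adamts9*, and 4 of its 8 regions lay nearest to one of these starts.

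*Adamts15*, a further versican-cleaving protease, had 1, 3 and 2 peaks at days 0, 9 and 28, and none within 1 kb of its start. The region present at all 3 days lay on the 3' side (chr9:30704158-30704814), at percentile 8.64, 31.3 and 13.0. The highest-scoring one, in intron 1 (chr9:30719171-30720078), was at percentile 57.0 and had a peak at day 9 alone, with TGTGGT at its centre. A region upstream, present at days 9 and 28, lay nearest to the start of *Adamts8*, the next Adamts gene on the chromosome.

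*Adamts7* and *Adamts12* encode proteases that cleave Comp, and they had their highest numbers of peaks at different days. *Adamts7* had 1, 7 and 3 peaks at days 0, 9 and 28. The region present at all 3 days lay upstream (chr9:90040543-90041305), at percentile 10.3, 55.4 and 31.9. The start site had no peak at day 0 and was at percentile 66.0 at day 9 and 37.2 at day 28. Of its 7 regions, 4 had a peak at day 9 alone.

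*Adamts12*, the longest of the 10 genes, had 6, 9 and 14 peaks at days 0, 9 and 28. Its 13 regions included 4 of day 28 alone, 1 of day 0 alone and none of day 9 alone. The regions of day 28 alone were at percentiles 56.4, 16.3, 9.49 and 12.2. With lists of equal length the counts were 6, 4 and 6, and at a p-value of 1e-20 they were 3, 7 and 7, while at 1e-50 they were 1, 2 and 1 and at 1e-100 they were 0, 2 and 0. Day 28 thus had more peaks than day 9 with lists of equal length, as many at 1e-20 and fewer at the stricter p-values. A region in intron 2 (chr15:11047649-11048665) held the highest-scoring day 0 peak, at percentile 81.0, and was at percentile 49.6 at day 28, with no peak at day 9. The highest-scoring day 28 peak lay elsewhere in intron 2 (chr15:11025204-11026339), in a region present at all 3 days at percentile 49.1, 62.8 and 63.5. One in intron 3 (chr15:11103618-11104965) had no peak at day 0 and was at percentile 82.1 at day 9 and 54.9 at day 28.

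The highest-scoring day 9 peak of *Adamts12* lay in the promoter. It was present at all 3 days, at percentile 12.1, 88.7 and 30.7. The peaks over the start itself held no TGTGGT, and the higher-scoring one of each day was at percentile 41.6, 54.8 and 50.2.

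*Adamts6*, a protease related to *Adamts10* whose substrates are less well known, had 3, 4 and 5 peaks at days 0, 9 and 28. Over a gene body of 206.9 kb, its 7 regions comprised the start region, 2 in intron 20, 1 in exon 25 and 3 beyond the 3' end. The start peak (chr13:105076836-105077401) was present at all 3 days, at percentile 45.6, 12.1 and 48.0. It was the one start peak of the 5 seen at all days that was lower within its list at day 9 than at day 0. Its day 9 centre is shown because it is a start site peak present at all 3 days. The centre lay in the promoter, at -872 bp from the start, so the bases shown are not those at the start itself. The centre held no TGTGGT, and the whole region held none either.

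Adamts6 start site, chr13:105077031-105077131, + strand: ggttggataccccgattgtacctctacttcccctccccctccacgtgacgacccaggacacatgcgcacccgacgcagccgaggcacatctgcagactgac

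The strongest *Adamts6* region lay beyond the 3' end of the gene (chr13:105299887-105301381). Its highest scores were 2221.1, 2619.9 and 3100, at percentile 98.1, 93.8 and 97.8. It was the highest-placed day 0 peak at the 10 genes, and the annotation gave *Adamts6* as the gene with the nearest start. The other regions of *Adamts6* were at or below percentile 54.3.

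Start sites were occupied at more of the genes at day 9 and day 28 than at day 0. A peak lay within 1 kb of a start at 5 of the 10 genes at day 0, 8 at day 9 and 8 at day 28, against 43.6%, 53.3% and 51.1% of all genes. *Adamts2*, *Adamts1*, *Adamts5*, *Adamts12* and *Adamts6* had one at every day, *Adamts14*, *Adamts9* and *Adamts7* at days 9 and 28, and *Adamts3* and *Adamts15* at none. Among genes with a start peak, the median percentile of the highest one was 45.6, 79.9 and 62.4 for these genes at days 0, 9 and 28, beside 61.9, 82.0 and 78.7 for all genes. With the start of the gene body alone in place of all transcript starts, the numbers of genes were also 5, 8 and 8.

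**Figure D3:**
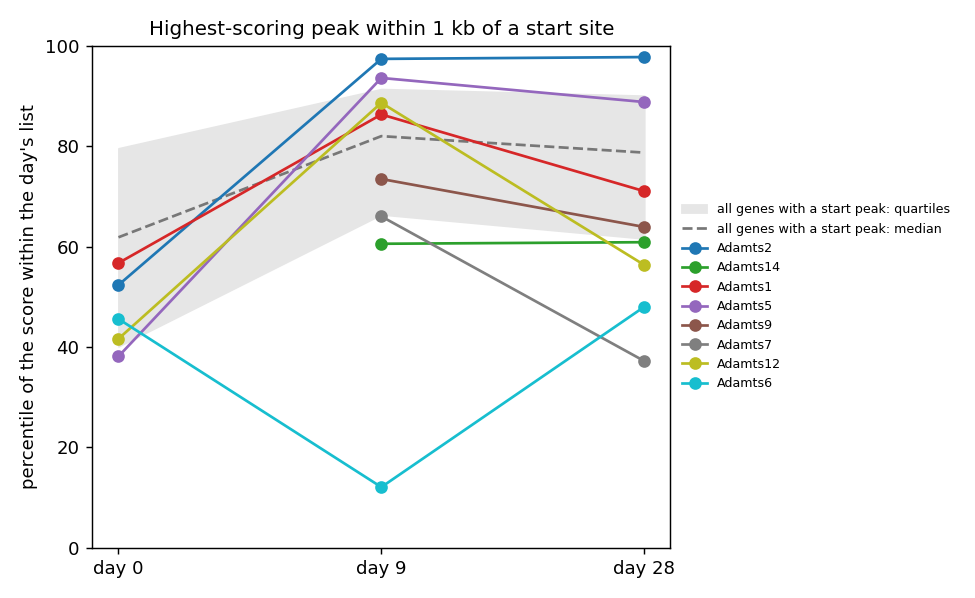
Percentile, within its day's list, of the highest-scoring peak within 1 kb of a start site of each Adamts gene at each day (points, joined by lines for 1 gene); the dashed line is the median and the grey band the quartiles over all genes with a start peak. Adamts2 and Adamts5 were the highest at days 9 and 28, and Adamts6 was at 12.1 at day 9; the points of Adamts12 are 3 different peaks.

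The 84 regions were then grouped by the days at which they held a peak. Peaks were present at all 3 days in 20 regions (23.8%, 95% interval 15.2 to 34.4%), against 27.4% of all regions. At days 9 and 28 there were 23 (27.4%, 18.2 to 38.2%), against 21.1%, and at day 9 alone there were 27 (32.1%, 22.4 to 43.2%), against 34.5%. Each interval is exact binomial (Clopper-Pearson), covers counting error only and held the share of all regions. The remaining 14 regions were 10 of day 28 alone, 2 of days 0 and 28 and 2 of day 0 alone, with 0 of days 0 and 9. For these groups the share over all regions was not counted. By peaks, regions of day 28 alone held 10 of 58 day 28 peaks here and 5141 of 40330 in the whole list. Regions of day 0 alone held 2 of 26 day 0 peaks here and 3792 of 25457 in the whole list. With lists of equal length, 13 regions were present at all 3 days and 6 at day 9 alone, and the shares over all regions were not counted at that length.

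Regions present at all 3 days were placed higher within the day 9 list than within the day 0 list in 15 of 20 cases (75%), and the same held for 75.6% of such regions in the whole lists. In these 20 regions the highest peak had a median percentile of 43.6, 73.6 and 69.0 at days 0, 9 and 28, each lower than over all such regions. The day 9 peaks of regions of day 9 alone had a median percentile of 33.2, against 68.0 for those of regions present at all 3 days. Over the whole day 9 list the same medians were 26.6 and 76.8, so the difference was not particular to these genes.

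The regions lay mostly in introns. The centre of 60 of the 84 regions was in an intron (71.4%, 95% interval 60.5 to 80.8%), against 42.9% of all regions. The genes are long and were chosen by name, so that much of each window is intron, and the part of gene length in this share was not tested. Exons held 7 centres, promoters 5, upstream sequence 8 and intergenic sequence 4.

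The core motif TGTGGT, looked for on either strand in the 50 bp on each side of a peak's centre, was present in 6 of 26 peaks at day 0 (23.1%, 95% interval 8.97 to 43.7%), in 22 of 82 at day 9 (26.8%, 17.6 to 37.8%) and in 15 of 58 at day 28 (25.9%, 15.3 to 39.0%). The shares in the whole lists were 16%, 25.3% and 20.9%, each within the interval. The centre is the midpoint of the called interval, so a motif at the summit of a wide peak can fall outside the search. At day 9 the motif was at the centre of 1 of 15 peaks within 1 kb of a start (6.67%, 0.169 to 32.0%) and of 21 of 67 others (31.3%, 20.6 to 43.8%), and these intervals overlap. The same split was not counted over the whole list, so the values cannot show whether the difference is particular to these genes. By gene, *Adamts14* had the motif in 6 of its 14 day 9 peaks and *Adamts2* in 4 of 27, and *Adamts6* had it in 0 of 12 peaks over the 3 days.

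**Figure D4:**
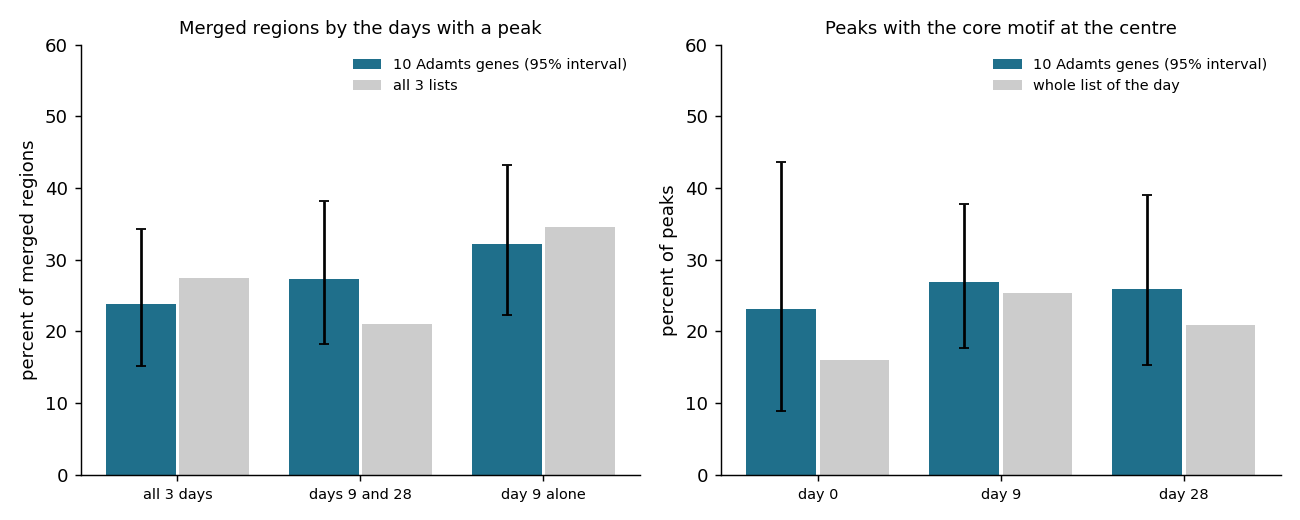
Left, percent of merged regions with a peak at all 3 days, at days 9 and 28 and at day 9 alone; right, percent of peaks with TGTGGT within 50 bp of the centre at each day. Blue bars are the 10 Adamts genes with exact binomial 95% intervals and grey bars all regions or the whole list of the day; each grey value lies within the interval beside it.

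Several peaks held 4 or more copies of the motif, and 3 of them are shown as examples because a count of peaks hides the copies. Peaks with many copies were not particular to these genes. In the whole day 9 list, 1998 of 60596 peaks (3.30%) held 7 or more copies, and the share with 4 or more was not counted. At day 9, a peak in intron 19 of *Adamts2* held 9 copies, one in intron 2 of *Adamts14* held 7, and one in exon 13 of *Adamts14* held 4. The peaks in introns also held a run of at least 6 copies of CA or TG, the longer of 20 bp, while the exon 13 peak held none. These 3 examples were regions of day 9 alone, at percentiles 18.8, 40.1 and 15.3, but peaks with several copies were not limited to such regions. The day 28 peak in intron 3 of *Adamts2*, in a region present at all 3 days, held 5 copies and was at percentile 89.1. That peak was wider, with 2539 bp against 416, 542 and 450 bp in the 3 examples. Its copies lay farther apart, with a median spacing of 227.5 bp against 29, 43 and 84 bp. The capitals mark the motif in the central 101 bases.

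Adamts2 intron 19, chr11:50607449-50607549, + strand: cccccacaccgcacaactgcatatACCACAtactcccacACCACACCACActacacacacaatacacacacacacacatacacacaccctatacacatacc
Adamts14 intron 2, chr10:60714494-60714594, - strand: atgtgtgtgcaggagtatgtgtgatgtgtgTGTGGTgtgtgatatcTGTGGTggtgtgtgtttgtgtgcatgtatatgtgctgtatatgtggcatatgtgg
Adamts14 exon 13, chr10:60676294-60676394, - strand: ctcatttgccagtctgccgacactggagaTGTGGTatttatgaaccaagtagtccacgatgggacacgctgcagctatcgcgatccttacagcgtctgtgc

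Other genes of the family and genes of the same pathway were taken from lists by name. Over all genes, 65%, 77% and 71.2% had a peak at days 0, 9 and 28, and 60.3% had more at day 9 than at day 0. Of 9 other Adamts genes, 4 had a peak at day 0, 8 at day 9 and 7 at day 28, and 6 had more peaks at day 9 than at day 0. *Adamts4*, an aggrecan-cleaving protease, had 3, 10 and 7 peaks over a body of 10.2 kb, or 19.9 per 100 kb at day 9. *Adamts19* had 0 at each day, as *Adamts3* did. All 5 genes of Adamts-like proteins, which share the accessory domains and lack the protease, had a peak at each day, and *Adamtsl5* had 2, 17 and 8.

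Of 14 genes of substrates and regulators, 12 had a peak at day 0, 14 at day 9 and 13 at day 28, with more at day 9 than at day 0 in 13. Among all genes, 65%, 77% and 71.2% had a peak at these days, and 60.3% had more at day 9 than at day 0. The median of the 14 genes at day 9 was 14.4 peaks per 100 kb, against 5.99 for the 10 proteases and 3.49 over all genes. Single values ran from 0.984 for *Acan* to 38.7 for *Col1a1*. The gene bodies differed in length, and the part of length in these values was not tested. Among the substrates, *Col1a1*, a chain of type I collagen, had 8, 22 and 13 peaks, *Col1a2*, the other chain, had 5, 15 and 13, and *Comp* had 5, 12 and 4. *Acan*, the gene of aggrecan, had 0, 1 and 0, and *Vcan*, the gene of versican, had 0, 2 and 2. *Timp3*, an inhibitor of these proteases, had 2, 8 and 7, and *Furin*, a convertase that removes their propeptide, had 5, 9 and 5.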

How the data were processed

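Runx2 ChIP-Seq libraries of MC3T3-E1 cells at days 0, 9 and 28 were made by the authors from 2 biological replicates per day and sequenced as single-end reads. Per the submitters' processing notes, CASAVA 1.6, Bowtie 0.12.8 and MACS 1.4.1 were used. The authors mapped reads to mm9, pooled replicates, called peaks at default settings against pooled day 9 input, and kept peaks that passed a p-value of 1e-10. The deposited score of a peak was computed by MACS from its p-value, on a scale of minus 10 times the log10. Read signal and input libraries were not analysed here.

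Peak positions were converted to count from 1 and lay within the chromosomes of NCBIM37. Genes were the 22359 protein-coding genes of GENCODE M1. A window was the gene body and 20 kb on each side. Peaks sharing at least 1 bp were merged into regions. A region was placed by its centre, in the order exon, intron, promoter (1000 bp upstream to 150 bp downstream of a start), transcription termination site, upstream (to 20 kb) and intergenic. A start peak lay within 1 kb of any protein-coding transcript's start. TGTGGT was searched in NCBIM37 on both strands within 50 bp of a peak's centre, the midpoint of its called interval. Percentiles give tied scores their middle rank. Intervals are exact Clopper-Pearson 95% intervals. No test was made, since each day has 1 list.

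All 10 genes were named, with their peaks per day, the highest-scoring peak of each day, and start peaks. Other genes came from fixed lists of Adamts genes, Adamts-like genes, and substrates and regulators, of which those in the text are examples, or were neighbours. The sequences of 3 peaks are not reported here. The peaks with 4 or more motifs were chosen after their values were seen. The genes and lists were chosen with earlier results of these data known. Alternatives covered the p-value, flank, overlap, start site, motif and list length. Matplotlib 3.10.9, SciPy 1.17.1 and NumPy 2.4.6 were run under Python 3.11.15. Merging, motif search, window edges, exon placement and intervals were tested on cases with known answers.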

Additional observations from a re-analysis of the deposited data

How the results depend on the processing

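No paired analysis was possible because the replicates were pooled into 1 list per day. At p-values of 1e-20, 1e-50 and 1e-100, the peaks at the 10 genes were 15, 4 and 2 at day 0, 54, 27 and 15 at day 9, and 36, 18 and 7 at day 28. Regions were then 54, 26 and 16, those at all 3 days 11, 3 and 1, and those of day 9 alone 18, 7 and 8. Genes with a start peak at 1e-50 were 0, 5 and 4 at days 0, 9 and 28. Genes with more peaks at day 9 than at day 0 were 5, and genes with fewer at day 28 than at day 9 were 4, at 1e-100. The share of day 0 peaks with TGTGGT was 6.67% at 1e-20 and 0% at 1e-50, from 15 and 4 peaks. In gene bodies alone, 17 peaks remained at day 0, and 12 regions were present at all 3 days. With lists of equal length, days 9 and 28 had 34 and 33 peaks, and 13 regions were present at all 3 days and 6 at day 9 alone. More peaks at day 9 than at day 0 were then found in 4 genes and fewer at day 28 than at day 9 in 3. These counts were not made over all genes or all regions at that length. Over the whole peak, TGTGGT was present in 65.4%, 61.0% and 63.8% of peaks at days 0, 9 and 28. Of 104 alternative values, 69 stayed within 1.5 times the reported count or within the interval of the reported share, and the other 35 are given above. Day 9 had the most peaks in 9 of 9 settings of the peak counts. *Adamts2* had the most day 9 peaks of the 10 genes in each of these 9 settings. *Adamts12* had more peaks at day 28 than at day 9 in 6 of the 9 and *Adamts6* in 7. At 1e-50 and 1e-100, *Adamts12* had 2 and 2 peaks at day 9 and 1 and 0 at day 28. The counts of regions in place of peaks, the shares without CA runs and the counts of genes by order of days were chosen after seeing the data. The cause of these shifts was not tested. Without read counts, the precision of a single peak cannot be given.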

Other observations

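Runs of at least 6 copies of CA or TG were unevenly spread over the lists. A run lay within 50 bp of the peak centre in 0.719% of all day 0 peaks (95% interval 0.619 to 0.830%), 6.90% of all day 9 peaks (6.70 to 7.10%) and 1.36% of all day 28 peaks (1.25 to 1.48%). Among all day 9 peaks, the share was 15.1% in regions of day 9 alone, 2.69% in regions of days 9 and 28, and 1.06% in regions of all 3 days. At the 10 Adamts genes the corresponding day 9 counts were 4 of 27, 0 of 24 and 1 of 31 peaks. With peaks that held a run anywhere left out, TGTGGT was at the centre of 17 of 68 day 9 peaks of the 10 genes (25%) and of 23.9% of the day 9 list.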
